A study of Mus musculus with 12 samples.

Results

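Hearts of mouse embryos carrying a genotype label with floxed Flna were compared with control hearts by RNA sequencing at embryonic day 9.5, in 3 libraries of each group. The 6 libraries were chosen by their labels from the 12 of the series, and of the 15005 genes listed for them the 13891 with a mean of at least 1 CPM (read counts relative to library size, as the authors scaled it) were tested. The Flna-labelled hearts carried NkxCre, Asb2 fl/+ and Flna fl/fl, and the control hearts carried NkxCre and Asb2 fl/+, so that the Cre driver and 1 floxed Asb2 allele were common to both. The remaining 6 libraries, used below for direct comparisons, were 3 double mutant hearts (NkxCre, Asb2 fl/fl, Flna fl/fl) and 3 Asb2 cKO hearts (NkxCre, Asb2 fl/fl). All were labelled with the C57/BL 6 strain. The series' design text names as mutants the Asb2 single and the double mutant and counts 2 controls, so that among the 4 groups the Flna-labelled hearts stand, by elimination, with the controls. A fragment of text left in a deposited table writes the driver as Nkx2-5+Cre. Nkx2-5 is active in heart muscle precursors and in some neighbouring tissue, so cells outside that territory would keep both genes. The labels do not say whether a library came from 1 embryo or a pool. The p-values below set a difference between groups against the variation between libraries. Whether that is variation between embryos or between pools is not known, and some of it may be technical.

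Filamin A, the product of Flna, is a large actin crosslinker that anchors membrane receptors, and ASB2 is a substrate-binding subunit of a cullin ubiquitin ligase whose known targets include the filamins. At this age the heart is a looped tube of contracting muscle lined by endocardium, and it already pumps primitive red cells, which are made in the yolk sac and carry embryonic hemoglobins. The embryonic chains come from Hba-x (zeta) at the alpha-globin locus and from Hbb-y (epsilon-y) and Hbb-bh1 (beta-h1) at the beta-globin locus, whereas Hba-a1, Hba-a2, Hbb-bs and Hbb-bt give the adult chains. Just behind the heart the liver bud grows out of the foregut into the septum transversum and starts to make serum proteins such as albumin. The yolk sac's visceral endoderm makes many of the same serum proteins.

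The targeted genes were examined first. Flna (ENSMUSG00000031328, chromosome X, 74223461 to 74249820, minus strand, GRCm38/mm10) had 958, 1010 and 990 CPM in the Flna-labelled libraries, against 490, 554 and 721 CPM in the control libraries. Every Flna-labelled library was above every control library. The log2 fold change was 0.76 (SE 0.14), which did not pass (limma, Benjamini-Hochberg adjusted p = 0.147), whereas the authors' deposited table gives Flna a log2 fold change of 0.74 and an FDR of 0.00319. The gene that the label says was deleted was thus not lower in these libraries, and every direction given below rests on the label. Whole-gene counts can include reads of exons outside a deletion and of cells without Cre, and the labels do not name the deleted exons. Asb2 (chromosome 12, 103321142 to 103356001, minus strand) had 125, 113 and 197 CPM in the Flna-labelled libraries, against 289, 183 and 218 CPM in the control libraries. These groups overlapped and the difference did not pass (log2 fold change -0.68, SE 0.24, limma adjusted p = 0.334). Among 538 tested genes of the X chromosome, Flna had the smallest p and stood in place 5 by fold change.

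Sex-linked transcripts varied between libraries. Xist, the RNA that coats the inactive X chromosome, had 0.0506, 0.123 and 0.367 CPM in the Flna-labelled libraries, against 0.823, 302 and 106 CPM in the control libraries. The Y-linked helicase gene Ddx3y had 68.3, 61.9 and 65.9 CPM in the Flna-labelled libraries, against 58.6, 0 and 51.4 CPM in the control libraries. The Y-linked Kdm5d, Uty and Eif2s3y followed the same pattern, with at least 21.1 CPM in each Flna-labelled library and 0 in control library 2. All 3 Flna-labelled libraries therefore carried Y-linked transcripts and almost no Xist, although the label fl/fl of an X-linked gene names 2 floxed copies. Control library 1 had the same pattern, control library 2 had Xist and no Y-linked reads, and control library 3 had both. The part of this pattern in the differences below was not tested apart from 2 settings. These were a fit with Xist as a covariate and a fit against control library 1 alone. Both are given below for the genes that passed and for the liver, respiratory chain, ribosomal, sarcomere, neural crest and pharyngeal lists.

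**Figure D1:**
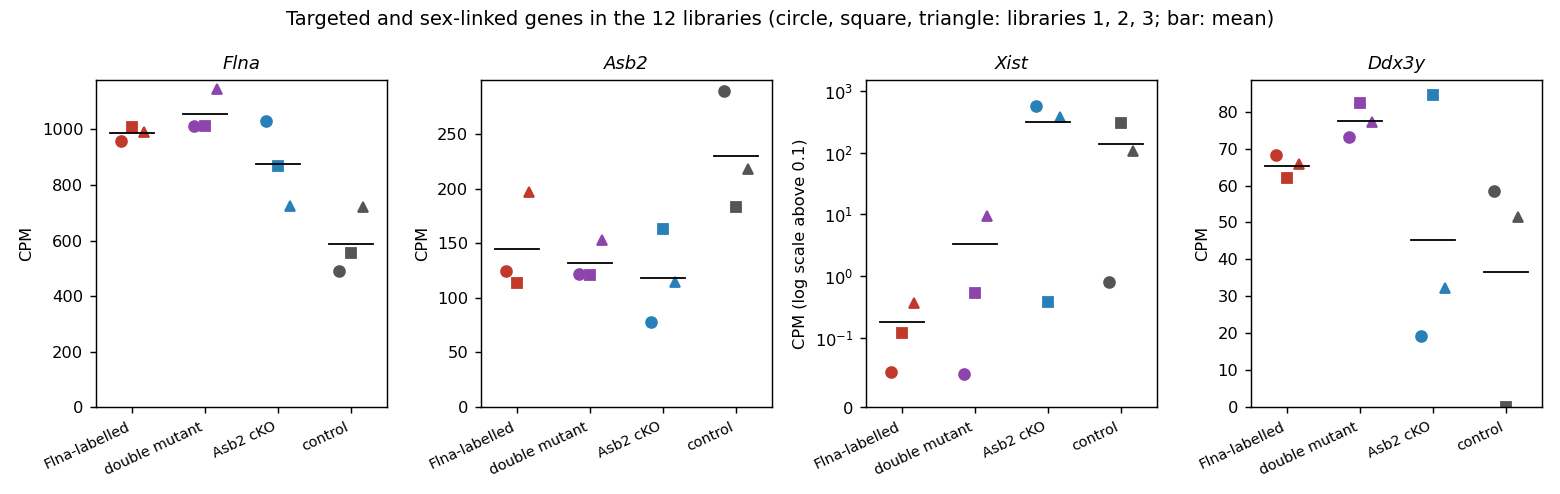
Levels of Flna, Asb2, Xist and Ddx3y in CPM in each of the 12 libraries by genotype group, with the group mean as a bar and Xist on a scale that is logarithmic above 0.1 CPM. The 3 Flna-labelled libraries lie at 958 to 1010 CPM for Flna, above the 3 control libraries at 490 to 721 CPM, and the control group alone holds a library with no Ddx3y reads.

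The 6 libraries held 27484813 to 37303648 reads in listed genes, and 1 read was worth 0.0253 to 0.0367 CPM. Muscle markers were abundant in all of them, as 37 of 38 listed sarcomere genes passed the filter and their summed level was 29190 to 53560 CPM in the Flna-labelled libraries and 47150 to 71230 CPM in the control libraries. Some libraries stood apart within their group. Across genes, Flna-labelled library 3 correlated at 0.975 and 0.974 with Flna-labelled libraries 1 and 2 but at 0.983 with control library 3. Flna-labelled libraries 1 and 2 correlated at 0.987 with each other, and control library 1 at 0.952 with each of them. Genes are not independent replicates, and these values only describe the libraries. List medians further from 0 than 0.15 that moved by more than 1.5 times without 1 library are given below for the lists described. They are taken over the members past the filter in that fit. Medians at 0.15 or nearer to 0 also moved by more than this, and most of these moves are not given. Without control library 1, for example, the median of the erythroid regulators went from 0.03 to -0.14.

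With limma, 10 of 13891 genes (0.072%) passed an adjusted p of 0.05. Of these, 4 (0.0288%) were higher in the Flna-labelled libraries and 6 (0.0432%) were lower. The genes that fell were 4 hemoglobin chains, Car2 and Tmem37, and those that rose were the liver genes Itih2, Alb, Vtn and Cebpa. At an unadjusted p of 0.05 there were 1822 genes, and the groups did not overlap at 1288 genes that were higher (9.27%) and 1210 that were lower (8.71%) in the Flna-labelled libraries. On reads recovered from the deposited values, edgeR's quasi-likelihood test passed 2 genes, Hba-a2 and Hbb-y (adjusted p = 0.0326 and 0.0459), and DESeq2 passed 244. The authors' deposited table has 70 higher genes (0.467% of its 15005) and 47 lower ones (0.313%) at an FDR under 0.05, and all 10 genes passed by limma are among them. Without any 1 of the 3 control libraries, 0 of the 10 genes passed limma, with adjusted p between 0.054 and 0.195. Without Flna-labelled library 3 all 10 passed. With Xist as a covariate (adjusted p 0.149 to 0.287) and against control library 1 alone (0.174 to 0.205) 0 of them passed by limma, beside 1887 and 2511 genes at an unadjusted p under 0.05. Their direction was the same under all of these settings. Where limma was run on fewer libraries it could not be otherwise, because the groups did not overlap for any of the 10 genes.

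**Figure D2:**
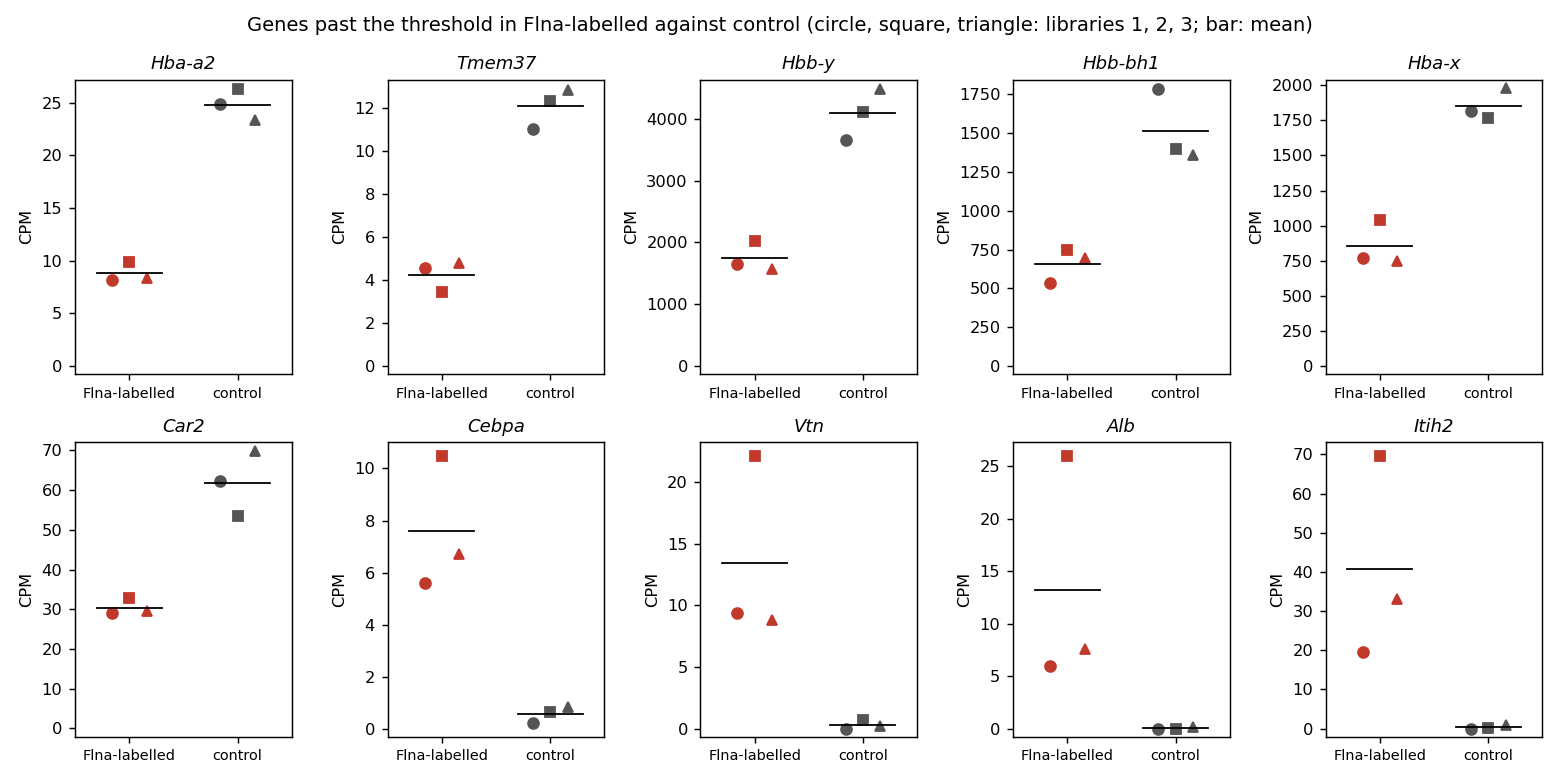
Level in CPM of the 10 genes past the threshold in each Flna-labelled and each control library, with the group mean as a bar. The groups do not overlap for any of them, and Flna-labelled library 2 is the highest library for the 4 liver genes, at 69.6 CPM for Itih2 and 26 CPM for Alb.

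The stretches of DNA in front of 4 of these genes are shown. The embryonic chains of the separate alpha- and beta-globin loci moved together, as did the serum protein genes Itih2, Alb and Vtn. Each is the 250 bases before the RefSeq start site (GRCm38.p6), 5′ to 3′ on the gene's strand. Capitals mark the letters of a motif on either strand, searched as AGATAA as in GATA sites, CACCC as in KLF sites, TATAAA as in TATA boxes, CCAAT as in NF-Y sites and GTTAAT as in HNF1 sites. Matches describe the letters in the window and are not binding sites.
Hbb-y: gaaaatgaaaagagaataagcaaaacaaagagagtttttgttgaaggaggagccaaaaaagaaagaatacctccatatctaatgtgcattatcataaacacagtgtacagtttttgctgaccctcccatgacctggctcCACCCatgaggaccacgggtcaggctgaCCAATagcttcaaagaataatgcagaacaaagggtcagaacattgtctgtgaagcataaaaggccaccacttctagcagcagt
Hba-x: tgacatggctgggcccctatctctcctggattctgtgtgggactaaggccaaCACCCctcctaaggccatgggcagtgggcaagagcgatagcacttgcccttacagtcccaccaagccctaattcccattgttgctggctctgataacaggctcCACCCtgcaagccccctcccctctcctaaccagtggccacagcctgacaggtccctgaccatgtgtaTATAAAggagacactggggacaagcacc
Alb: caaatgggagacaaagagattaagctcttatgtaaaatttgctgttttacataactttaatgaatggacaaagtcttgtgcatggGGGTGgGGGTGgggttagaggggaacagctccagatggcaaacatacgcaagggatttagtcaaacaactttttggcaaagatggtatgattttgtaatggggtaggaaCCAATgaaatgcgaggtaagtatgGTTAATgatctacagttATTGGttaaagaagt
Vtn: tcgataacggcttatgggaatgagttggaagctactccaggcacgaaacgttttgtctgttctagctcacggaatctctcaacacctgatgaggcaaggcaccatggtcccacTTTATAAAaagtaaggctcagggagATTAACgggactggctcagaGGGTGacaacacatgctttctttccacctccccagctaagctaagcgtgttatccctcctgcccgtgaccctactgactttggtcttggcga
The windows, counted from RefSeq starts that can differ from the GENCODE gene ends given below, are chr7:103853208-103853457, minus strand for Hbb-y, chr11:32276350-32276599, plus strand for Hba-x, chr5:90460620-90460869, plus strand for Alb and chr11:78498870-78499119, plus strand for Vtn. CACCC letters begin at base -111 from the start site in Hbb-y and at -198 and -95 in Hba-x, and they stand in 52% of the 32851 promoters searched. Hbb-y also has a CCAAT match (33.8% of promoters) and Hba-x a TATAAA match (12.4%). AGATAA, found in 9.99% of promoters, matches in neither globin window. Only this form of a GATA site was searched. The letters TGATAA, which were not searched, stand in Hba-x and, on the opposite strand, in Hbb-y. Alb and Vtn each hold a GTTAAT match, at -32 in Alb and at -112 on the opposite strand in Vtn, which 6.43% of promoters have. The windows of the other liver genes that rose, Cebpa and Itih2, were searched alike and have 0 GTTAAT matches. CACCC letters also stand in the windows of Alb, Vtn, Cebpa, Itih2, Hba-a2 and Tmem37. The TATAAA matches of Vtn at -137 and -135 overlap each other on the 2 strands.

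Hemoglobin chains made up most of the genes that fell. Of 7 chains tested, 4 fell and 0 rose, all 7 had a negative fold change, and the median log2 fold change was -1.20, beside 0.00 over all genes. The summed hemoglobin level was 3025, 3877 and 3068 CPM in the Flna-labelled libraries, against 7401, 7402 and 7971 CPM in the control libraries. That is 0.321, 0.411 and 0.304% of the signal in the Flna-labelled libraries, against 0.708, 0.747 and 0.782% in the control libraries. In whole hearts, fewer red cells and less hemoglobin RNA per red cell cannot be told apart.

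Among the embryonic chains, Hbb-y (chromosome 7, 103851749 to 103853216, minus strand) had 1657, 2025 and 1575 CPM in the Flna-labelled libraries, against 3668, 4119 and 4491 CPM in the control libraries. The highest Flna-labelled library lay well under the lowest control library (log2 fold change -1.23, SE 0.13, limma adjusted p = 0.0223). Hbb-bh1 (chromosome 7, 103841637 to 103843164, minus strand), its neighbour in the cluster, had 536, 746 and 694 CPM in the Flna-labelled libraries, against 1783, 1398 and 1360 CPM in the control libraries (-1.20, SE 0.15, adjusted p = 0.0282). Hba-x (chromosome 11, 32276400 to 32278116, plus strand) had 772, 1038 and 747 CPM in the Flna-labelled libraries, against 1819, 1769 and 1979 CPM in the control libraries (-1.14, SE 0.14, adjusted p = 0.0223). The embryonic chains of both loci thus all fell, and no Flna-labelled library reached the control range.

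Of the adult chains, Hba-a2 (chromosome 11, 32296489 to 32297298, plus strand) had 8.12, 9.87 and 8.34 CPM in the Flna-labelled libraries, against 24.9, 26.3 and 23.3 CPM in the control libraries. Its fold change was the most negative of the 7 chains (-1.45, SE 0.15, adjusted p = 0.0223). Hba-a1, a close copy of it whose reads the authors' counting could have split with it, had 45.4, 49.3 and 31.2 CPM in the Flna-labelled libraries, against 89.9, 73.7 and 99.3 CPM in the control libraries. Hba-a1 did not overlap between the groups and did not pass (-1.07, SE 0.18, adjusted p = 0.147). The adult beta chains were low and overlapped, with Hbb-bs at 2.93, 4.74 and 9.55 CPM in the Flna-labelled libraries, against 13.2, 7.08 and 7.26 CPM in the control libraries. Hbb-bt had 3.85, 3.75 and 1.69 CPM in the Flna-labelled libraries, against 3.42, 9.82 and 11.8 CPM in the control libraries, and the 2 are close copies of each other. The chains' shares of the hemoglobin signal overlapped between the groups for Hbb-y and Hba-x, and did not for Hba-a2. The Hba-a2 share was 0.268, 0.255 and 0.272% in the Flna-labelled libraries, against 0.336, 0.355 and 0.293% in the control libraries. Hbb-y took 54.8, 52.2 and 51.3% of it in the Flna-labelled libraries, against 49.6, 55.6 and 56.3% in the control libraries. Hba-x took 25.5, 26.8 and 24.4% in the Flna-labelled libraries, against 24.6, 23.9 and 24.8% in the control libraries. Per kilobase of transcript, levels in all 6 libraries ran in the order Hbb-y, Hbb-bh1, Hba-x, Hba-a1 and Hba-a2; these were 2518, 877.7, 826.4, 56.1 and 12.2 CPM per kilobase in Flna-labelled library 1. In that library Hbb-bh1 and Hba-x differed by less than the spread over the Flna-labelled libraries, which was 877.7 to 1221 and 800.2 to 1111 CPM per kilobase.

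Most other red cell genes had negative fold changes. Of 21 tested genes of the red cell membrane and its enzymes, 1 fell and 0 rose, and the median was -0.72. In 18 the fold change was negative, and 13 were lower without overlap, beside 8.71% of all genes. Car2, the cytosolic carbonic anhydrase that is abundant in red cells, had 28.9, 32.9 and 29.5 CPM in the Flna-labelled libraries, against 62.2, 53.4 and 70 CPM in the control libraries (-1.0, SE 0.13, limma adjusted p = 0.0282). Hemgn, an erythroid nuclear protein, had 8.75, 9.04 and 8.19 CPM in the Flna-labelled libraries, against 15.3, 18.1 and 24 CPM in the control libraries (-1.08, SE 0.18, adjusted p = 0.138). Neither Car2 nor Hemgn overlapped between the groups. Of 18 genes of heme synthesis and iron uptake, 0 passed, 10 were lower without overlap (8.71% over all genes) and the median was -0.35. Among them Alas2, the erythroid enzyme that starts heme synthesis, had 23.6, 35.7 and 25.5 CPM in the Flna-labelled libraries, against 59.5, 46.4 and 63.9 CPM in the control libraries (-1.0, SE 0.18, adjusted p = 0.147). The ferritin heavy chain gene Fth1 had 455, 457 and 448 CPM in the Flna-labelled libraries, against 629, 656 and 610 CPM in the control libraries (-0.48, SE 0.09, adjusted p = 0.147).

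No regulator of the red cell lineage passed. Of 16 erythroid regulators, 0 passed and 3 were lower without overlap, beside 8.71% of all genes. Of the 16, 9 had a positive and 7 a negative fold change, and the median was 0.03. Many of them are also made in endothelium or in other tissues. Klf1, a red cell transcription factor that switches on globin genes, had 4.2, 8.73 and 7.64 CPM in the Flna-labelled libraries, against 14.1, 11.7 and 15.5 CPM in the control libraries (-1.0, SE 0.26, limma adjusted p = 0.292). Gata1, the master factor of the lineage, had 3.82, 3.35 and 5.36 CPM in the Flna-labelled libraries, against 7.17, 7.16 and 9.04 CPM in the control libraries (-0.84, SE 0.23, adjusted p = 0.292). The erythropoietin receptor gene Epor had 6.63, 6.77 and 6.94 CPM in the Flna-labelled libraries, against 12.6, 7.96 and 12.5 CPM in the control libraries (-0.63, SE 0.21, adjusted p = 0.311). Platelet and leukocyte markers had 0 of 12 and 0 of 7 genes past the threshold, with medians of -0.02 and -0.09. Endothelial and endocardial markers had 0 of 34 past the threshold and a median of -0.15.

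A few genes of the liver bud rose in the Flna-labelled libraries. Of 28 tested members of the list, 4 rose and 0 fell. Without overlap 10 were higher and 0 lower, beside 9.27% and 8.71% of all genes. The median log2 fold change was 1.14, beside 0.00 over all genes. That median was 0.60 without Flna-labelled library 2, 0.39 without control library 2 and 0.42 with Xist as a covariate. It was 1.06 without a filter and 0.83 with a filter of 5 CPM. Itih2 (chromosome 2, 10094593 to 10131396, minus strand), which encodes a serum protein that binds hyaluronan, had 19.6, 69.6 and 33.2 CPM in the Flna-labelled libraries, against 0, 0.137 and 0.89 CPM in the control libraries. These control values stood for 0, 5 and 26 reads (log2 fold change 5.57, SE 0.53, limma adjusted p = 0.0223). Alb (chromosome 5, 90460897 to 90476602, plus strand), which encodes serum albumin, had 5.95, 26 and 7.6 CPM in the Flna-labelled libraries, against 0, 0 and 0.137 CPM in the control libraries. Alb thus had 207 to 844 reads in each Flna-labelled library and 4 reads over the control group (4.36, SE 0.50, adjusted p = 0.0223). Vtn (chromosome 11, 78499091 to 78502324, plus strand), which encodes the adhesive serum protein vitronectin, had 9.41, 22.1 and 8.78 CPM in the Flna-labelled libraries, against 0, 0.741 and 0.24 CPM in the control libraries (4.05, SE 0.44, adjusted p = 0.0223). Cebpa (chromosome 7, 35119293 to 35121928, plus strand), a transcription factor of hepatocytes, fat and myeloid cells, had 5.62, 10.5 and 6.72 CPM in the Flna-labelled libraries, against 0.23, 0.631 and 0.821 CPM in the control libraries (2.93, SE 0.34, adjusted p = 0.0223). These fold changes are on log2(CPM + 0.5), which understates the change of genes near 0. The control means of Itih2, Alb, Vtn and Cebpa were 0.342, 0.0456, 0.327 and 0.561 CPM. These genes thus passed the filter of 1 CPM only through the Flna-labelled libraries, and the list counts and median include them. All 4 were highest in Flna-labelled library 2, and no Flna-labelled library came near the control range.

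Other serum protein genes, of which Serpinf2 is outside the list and was named by fold change, did not pass. Ambp, the precursor of a small serum lipocalin, had 7.16, 36.3 and 11.8 CPM in the Flna-labelled libraries, against 0.724, 0 and 1.27 CPM in the control libraries (3.88, SE 0.68, limma adjusted p = 0.196). Serpinf2, the plasmin inhibitor alpha-2-antiplasmin, had 13.4, 48.7 and 20.8 CPM in the Flna-labelled libraries, against 4.34, 0.0274 and 3.97 CPM in the control libraries (3.44, SE 1.02, adjusted p = 0.32). Library 2 was again the highest. A further set, chosen after the values were seen, ran differently. Afp, alpha-fetoprotein, which liver bud and yolk sac endoderm both make, had 93.7, 372 and 134 CPM in the Flna-labelled libraries, against 158, 3.13 and 200 CPM in the control libraries. Apob, the core protein of lipoprotein particles, had 2.66, 5.66 and 2.39 CPM in the Flna-labelled libraries, against 34.7, 0.137 and 47 CPM in the control libraries. Apoa1, of high-density lipoprotein, had 2.83, 12 and 3.82 CPM in the Flna-labelled libraries, against 61, 1.51 and 38.8 CPM in the control libraries. For these 3 genes control libraries 1 and 3 were high and control library 2 was the lowest of the 6 libraries, at 114 reads for Afp, 55 for Apoa1 and 5 for Apob. Over the 34 listed members of the liver list, Flna-labelled library 2 was the highest of the 6 libraries for 22, control library 1 or 3 for 8, and control library 2 was lowest or tied for lowest for 23.

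Visceral endoderm markers were examined beside these. Of 13 tested, 0 passed, and 3 were lower and 0 higher without overlap, beside 8.71% and 9.27% of all genes. The median was -0.12, or -0.46 and -0.52 without Flna-labelled library 1 or 3 and -0.53 without control library 2. Without Flna-labelled library 3 it was -0.19 over the members that also passed the filter with every library kept. Amn, the amnionless partner of cubilin in the endocytic receptor of yolk sac endoderm, had 1.82, 1.88 and 4.04 CPM in the Flna-labelled libraries, against 14.2, 3.73 and 5.72 CPM in the control libraries (-1.31, SE 0.47, limma adjusted p = 0.334). Rhox5, a homeobox gene of extraembryonic tissues, had 5.41, 4.71 and 4.26 CPM in the Flna-labelled libraries, against 17.4, 8.75 and 9.07 CPM in the control libraries (-1.15, SE 0.27, adjusted p = 0.266). Cubn, which encodes cubilin and was picked after its values were seen, had 2, 1.01 and 1.32 CPM in the Flna-labelled libraries, against 20.6, 1.04 and 32.4 CPM in the control libraries. The summed level of this list was 546.6 to 601.8 CPM in the Flna-labelled libraries and 627.7 to 757.8 CPM in the control libraries, and that of the liver list 516 to 1422 CPM and 242.8 to 627.1 CPM. Of the liver list, 1 member was at 0 in each Flna-labelled library, against 6, 11 and 2 members in control libraries 1, 2 and 3, with Alb among those at 0 in control libraries 1 and 2. The part of adjacent endoderm in the liver gene differences was not tested. Against control library 1 alone, which had high Apob and Cubn, the liver list median was 0.80.

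**Figure D3:**
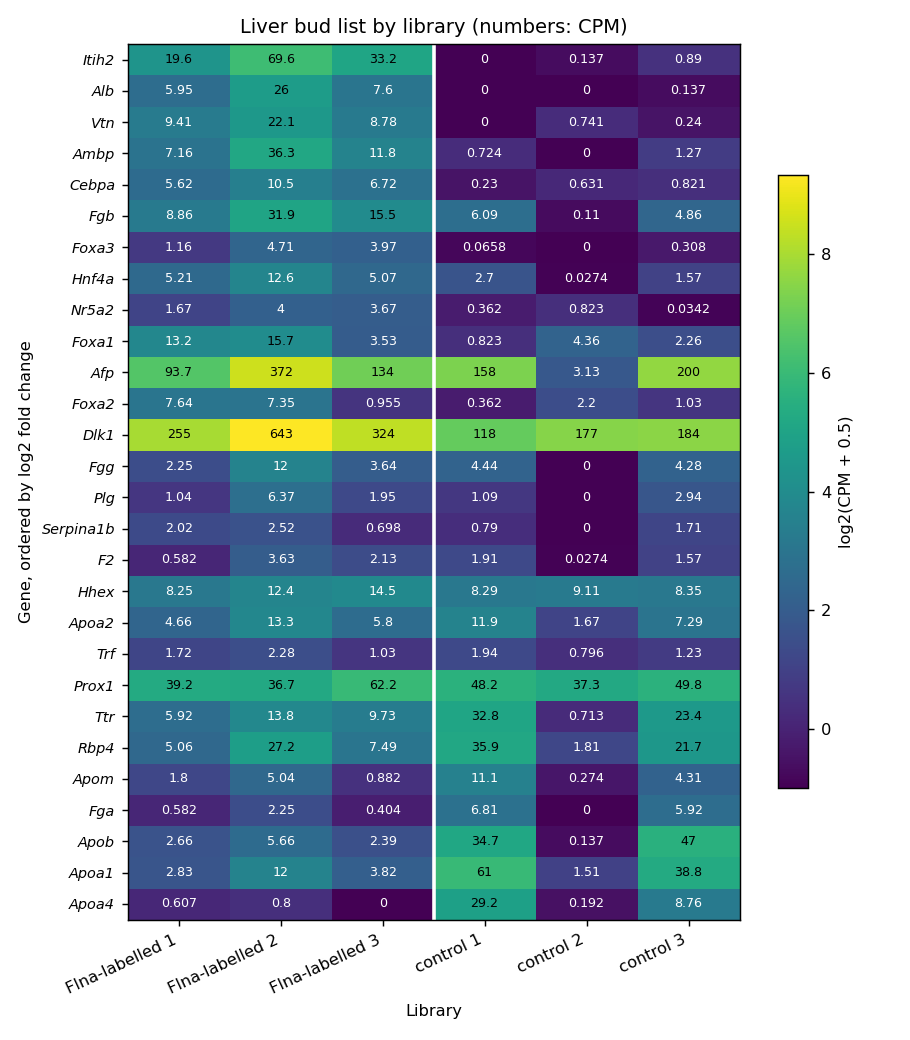
Level of the 28 tested members of the liver bud list in each library, coloured by log2(CPM + 0.5) and printed in CPM, ordered by fold change from the top. The upper rows are high in all 3 Flna-labelled libraries and near 0 in the control libraries, while the lowest rows (Apob, Apoa1, Apoa4) are highest in control libraries 1 and 3.

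The remaining gene past the threshold was Tmem37 (chromosome 1, 120067377 to 120074074, minus strand), which encodes a membrane protein. It had 4.55, 3.44 and 4.78 CPM in the Flna-labelled libraries, against 11.1, 12.3 and 12.9 CPM in the control libraries (-1.41, SE 0.20, limma adjusted p = 0.0481). The groups were well separated at this low level. The log2 fold change of Tmem37 no longer passed in 21 of 29 alternative settings and passed in 8. The settings in which it was lost include a pseudocount of 0.1 (adjusted p = 0.0655), a filter of 5 CPM (0.0547) and a rescaling of the libraries without hemoglobin genes (0.0586).

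Transcripts of the mitochondrial genome lay lower in the Flna-labelled libraries without passing limma. All 7 protein-coding members tested were lower in the Flna-labelled libraries without overlap, beside 8.71% of all genes. Of the 7, 0 passed, and the median log2 fold change was -1.04. Their summed level was 3003, 3188 and 3869 CPM in the Flna-labelled libraries, against 7048, 8289 and 5563 CPM in the control libraries. mt-Co1, a catalytic subunit of cytochrome c oxidase, had 1087, 1083 and 1377 CPM in the Flna-labelled libraries, against 2459, 2979 and 2084 CPM in the control libraries (-1.08, SE 0.15, limma adjusted p = 0.0541). mt-Nd1, a membrane subunit of complex I, had 589, 660 and 773 CPM in the Flna-labelled libraries, against 1366, 1528 and 1107 CPM in the control libraries (-0.98, SE 0.15, adjusted p = 0.0635). mt-Cytb, cytochrome b of complex III, had 564, 597 and 748 CPM in the Flna-labelled libraries, against 1434, 1649 and 1051 CPM in the control libraries (-1.10, SE 0.18, adjusted p = 0.138). For all 3 genes Flna-labelled library 3 and control library 3 were the libraries nearest to the other group. The complex I subunits mt-Nd2, mt-Nd4, mt-Nd5 and mt-Nd6 had fold changes of -0.94, -1.10, -1.04 and -0.86 with adjusted p of 0.147, 0.0911, 0.147 and 0.30. Without Flna-labelled library 3, 5 of the 7 fell (median -1.16), beside 0.309% of all genes in that fit. The authors' deposited table has all 7 lower at an FDR under 0.05, beside 0.313% of its genes. A pair of abundant noncoding or unnamed transcripts was examined beside these. The nuclear noncoding RNA Malat1 had 110, 117 and 265 CPM in the Flna-labelled libraries, against 448, 324 and 289 CPM in the control libraries (-1.20, SE 0.37, adjusted p = 0.32). The gene model Gm26924 took 1.02, 0.815 and 2.17% of the signal in the Flna-labelled libraries, against 2.46, 1.21 and 4.11% in the control libraries. Malat1 did not overlap between the groups and Gm26924 did, and their part in the differences of mitochondrial transcripts was not tested.

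Nuclear genes of the respiratory chain had smaller differences. All 76 tested members had a negative fold change, 0 passed, and 54 were lower without overlap, beside 8.71% of all genes. The median was -0.43, or -0.54 with Xist as a covariate and -0.58 against control library 1 alone. Atp5k, a small subunit of ATP synthase, had 100.8, 90.1 and 96.4 CPM in the Flna-labelled libraries, against 170, 169 and 132 CPM in the control libraries (-0.70, SE 0.12, limma adjusted p = 0.138). Ndufb10 of complex I had 105, 104 and 113 CPM in the Flna-labelled libraries, against 163, 171 and 145 CPM in the control libraries (-0.57, SE 0.10, adjusted p = 0.147). Ndufa1, also of complex I and X-linked, had 42.1, 37.4 and 40.6 CPM in the Flna-labelled libraries, against 69.3, 61.2 and 55.5 CPM in the control libraries (-0.62, SE 0.12, adjusted p = 0.147). Control library 3 was the lowest control library for Atp5k, Ndufb10 and Ndufa1. Cytosolic ribosomal protein genes had a median of -0.20, with 71 of 75 negative, 13 lower without overlap (8.71% over all genes) and 0 past the threshold. The median was -0.13 and -0.30 without control library 1 or 3. With Xist as a covariate it was -0.32, and against control library 1 alone -0.34. Rps18, of the small subunit, had 78.4, 124 and 87.2 CPM in the Flna-labelled libraries, against 190, 211 and 134 CPM in the control libraries (-0.89, SE 0.21, adjusted p = 0.292).

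Fold changes varied with gene length. Across 13891 genes, which are not independent, the log2 fold change correlated with the log2 of the deposited gene length at 0.23. Median length was 700 bases for the hemoglobin chains, 1143 for the mitochondrial genome, 1362.5 for the respiratory chain and 1398 for the ribosomal proteins, against 3659 for all genes tested. With a trend over length removed, the median was -1.02 for the hemoglobin chains, -0.95 for the mitochondrial genome, -0.30 for the respiratory chain and -0.09 for the ribosomal proteins. In that fit 6 of the 10 genes kept an adjusted p under 0.05, namely Vtn, Cebpa, Alb, Itih2, Hba-a2 and Hbb-bh1, while Hbb-y and Hba-x had adjusted p of 0.0727 and 0.0864.

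**Figure D4:**
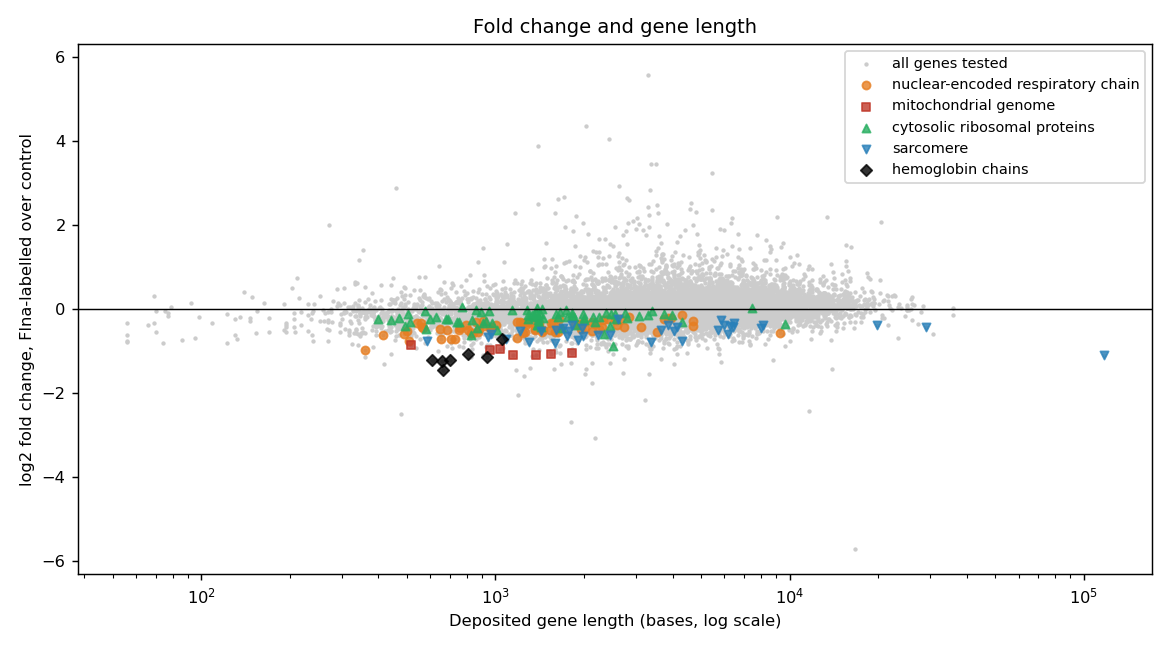
Log2 fold change of the Flna-labelled over the control libraries against deposited gene length in bases on a log axis, for all genes tested and for 5 lists. The hemoglobin chains and the mitochondrial genome lie near -1, below genes of the same length, while the respiratory chain and ribosomal protein genes lie nearer to the rest of the short genes.

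Muscle gene levels varied between the Flna-labelled libraries. Of 37 sarcomere genes, 0 passed, all 37 had a negative fold change and the median was -0.51. Of them, 6 were lower without overlap, beside 8.71% of all genes. In 36 of the 37, Flna-labelled library 3 was above Flna-labelled libraries 1 and 2, and in 31 it reached at least the lowest control library. In 34 of them control library 1 was the highest of the 6 libraries. In 35, both Flna-labelled libraries 1 and 2 were below all 3 control libraries. Without Flna-labelled library 3 the median was -0.77 and 3 of the genes fell, beside 0.309% of all genes in that fit. The median was -0.34 without Flna-labelled library 2 and -0.36 without control library 1. With Xist as a covariate the median was -0.84, and against control library 1 alone -0.80. Tnni3, cardiac troponin I, had 335, 274 and 437 CPM in the Flna-labelled libraries, against 742, 552 and 513 CPM in the control libraries (-0.80, SE 0.19, limma adjusted p = 0.292). Tnnt1, a slow-muscle troponin T, had 39.3, 36.1 and 53 CPM in the Flna-labelled libraries, against 72.2, 61.1 and 65.7 CPM in the control libraries (-0.64, SE 0.15, adjusted p = 0.265). Myoz2, a Z-disc protein that binds calcineurin, had 5.87, 5.04 and 7.05 CPM in the Flna-labelled libraries, against 7.67, 12.8 and 12.3 CPM in the control libraries (-0.79, SE 0.23, adjusted p = 0.292).

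No gene of cardiac excitation or chamber formation passed. Of 29 calcium handling and ion channel genes 0 passed and the median was -0.30, or -0.54, -0.13 and -0.45 without Flna-labelled library 3, Flna-labelled library 2 or control library 2. Trdn, triadin of the calcium release complex, had 29.5, 28 and 46.5 CPM in the Flna-labelled libraries, against 78.8, 72.8 and 60.7 CPM in the control libraries (-1.05, SE 0.20, limma adjusted p = 0.173). Of 20 genes of trabeculation and chamber formation 0 passed and the median was -0.23, or -0.45 and -0.42 without Flna-labelled library 3 or control library 2, and -0.14 without Flna-labelled library 1 or control library 1. Nppa, the atrial natriuretic peptide gene that marks working chamber muscle, had 679, 464 and 735 CPM in the Flna-labelled libraries, against 1014, 1083 and 926 CPM in the control libraries (-0.71, SE 0.17, adjusted p = 0.273). Robo1, a guidance receptor of the same list, had 70, 105 and 60.6 CPM in the Flna-labelled libraries, against 32.4, 40.5 and 45 CPM in the control libraries (0.96, SE 0.21, adjusted p = 0.265). Cardiac transcription factors were near 0 as a list, with 0 of 29 past the threshold and a median of -0.04. Actin cytoskeleton and focal adhesion genes, a list close to the known role of filamin A, had 0 of 46 past the threshold and a median of -0.06. Of these, 3 were higher and 3 lower without overlap, beside 9.27% and 8.71% of all genes. Targets of SRF and MRTF, which respond to actin, had 0 of 23 past the threshold and a median of -0.34, or -0.44 without Flna-labelled library 3 and -0.22 without control library 1. Of 18 tested genes of filamin partners and ASB ligases, 0 passed and the median was -0.13.

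Neural crest and pharyngeal markers, of tissue next to the heart, differed between the Flna-labelled libraries, with the summed levels of libraries 1 and 2 above that of library 3. Of 23 neural crest markers 0 passed, 21 had a positive fold change and the median was 0.51. Their summed level was 691.4, 670.7 and 435.8 CPM in the Flna-labelled libraries, against 355.5, 606.7 and 477.5 CPM in the control libraries. Sox10, a neural crest transcription factor, had 9.89, 7.63 and 1.21 CPM in the Flna-labelled libraries, against 0.559, 1.95 and 0.924 CPM in the control libraries (1.76, SE 0.69, limma adjusted p = 0.357). Alx4, a homeobox factor of craniofacial mesenchyme, had 9.39, 19 and 6.65 CPM in the Flna-labelled libraries, against 2.67, 3.73 and 2.19 CPM in the control libraries (1.75, SE 0.36, adjusted p = 0.236). Of 26 markers of pharyngeal endoderm and surface epithelium 0 passed and the median was 0.47. It was 0.92 without Flna-labelled library 3, 0.27 and 0.24 without Flna-labelled library 1 or 2, and 0.11 and 0.75 without control library 1 or 2. With Xist as a covariate the median of these markers was 1.20, and against control library 1 alone 1.11. Their summed level was 610.6, 713.8 and 364.8 CPM in the Flna-labelled libraries, against 367.3, 553.3 and 396.8 CPM in the control libraries. Nkx2-1, a factor of the thyroid and lung field of the foregut, had 8.83, 5.11 and 2.61 CPM in the Flna-labelled libraries, against 0.197, 0.247 and 0.89 CPM in the control libraries (2.60, SE 0.45, adjusted p = 0.138). Proepicardium and septum transversum markers had 0 of 19 past the threshold, 4 higher without overlap (9.27% over all genes) and a median of 0.27. Among these, Lhx2, a factor of septum transversum mesenchyme, had 4.66, 15.5 and 7.71 CPM in the Flna-labelled libraries, against 0.494, 3.29 and 2.33 CPM in the control libraries (2.00, SE 0.59, adjusted p = 0.304). Control library 1 was the lowest library for the summed neural crest and proepicardium lists. The summed proepicardium level was 832.2 to 1020 CPM in the Flna-labelled libraries and 685.4 to 928 CPM in the control libraries. The neural crest median was 0.95 without Flna-labelled library 3, 0.32 without Flna-labelled library 1, and 0.26 and 0.90 without control library 1 or 2. The same median rose from 0.51 to 1.4956 with Xist as a covariate and to 1.3409 against control library 1 alone. The proepicardium median was -0.10 without control library 1, and 0.50 and 0.67 without control library 2 or 3. The part of how much neighbouring tissue each library held in the muscle and marker differences was not tested.

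**Figure D5:**
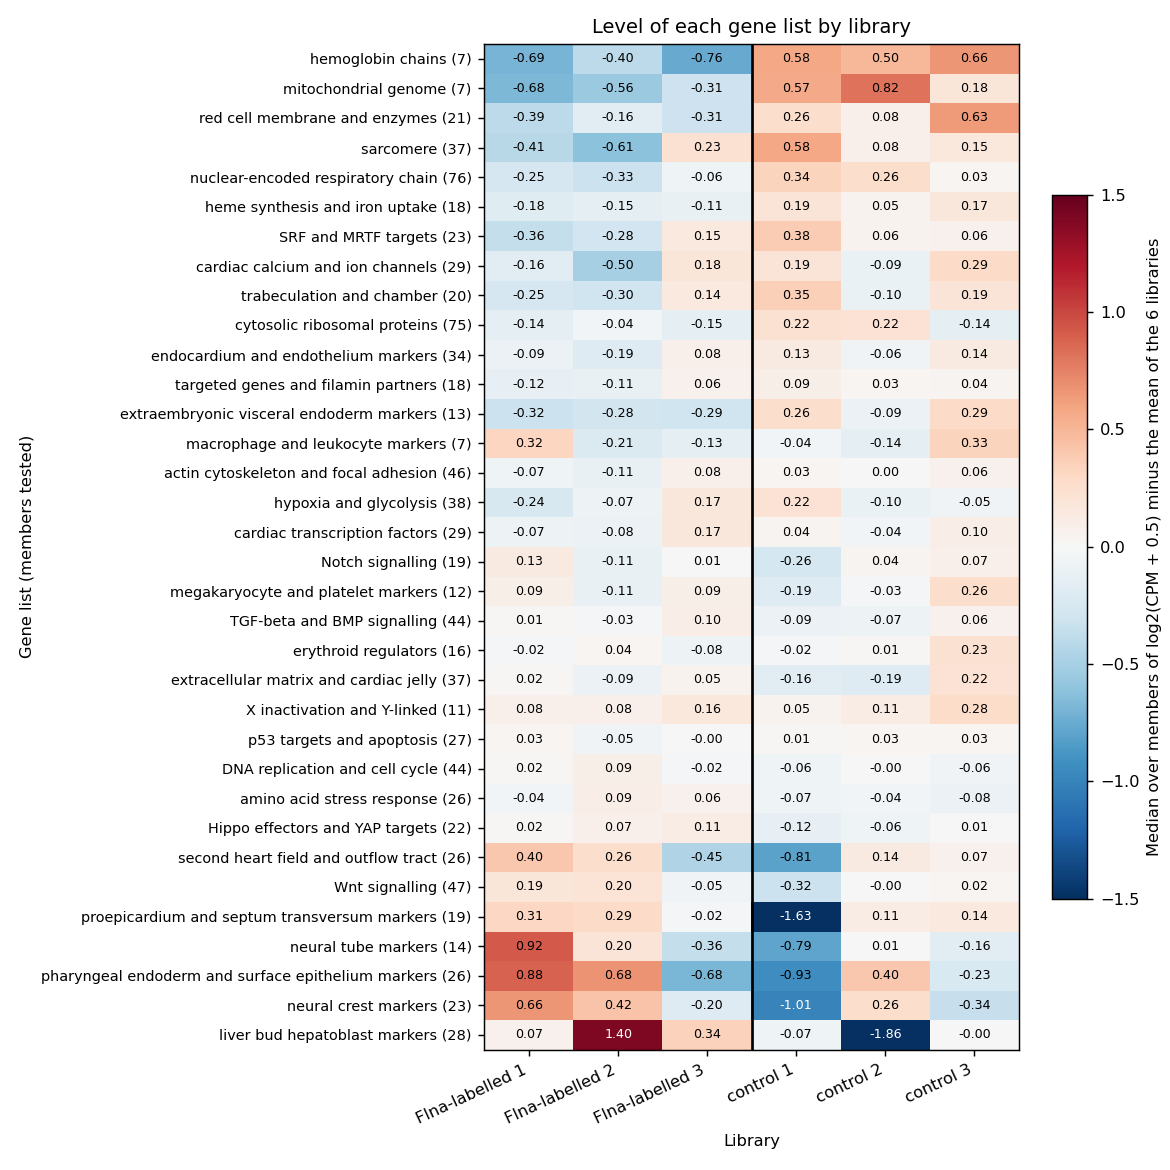
Median level of each gene list by library, as the median over members of log2(CPM + 0.5) minus the mean of the 6 libraries, with lists ordered by median fold change. Hemoglobin (-0.76 to -0.40 in the Flna-labelled libraries, 0.50 to 0.66 in the control libraries) and the mitochondrial genome separate all libraries of the groups, while the sarcomere and neural crest lists place Flna-labelled library 3 among the control libraries.

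No gene of the signalling and growth lists passed. Of 47 Wnt genes 0 passed, 36 had a positive fold change, and the median was 0.25, or 0.13 without control library 1. Of the 47, 9 were higher and 3 lower without overlap, beside 9.27% and 8.71% of all genes. Fzd7, a Wnt receptor, had 130, 150 and 102 CPM in the Flna-labelled libraries, against 64.2, 81.3 and 89.3 CPM in the control libraries (0.70, SE 0.17, limma adjusted p = 0.273). Sfrp5, a secreted Wnt antagonist, had 37.1, 49.7 and 56.6 CPM in the Flna-labelled libraries, against 27.4, 24.5 and 30.8 CPM in the control libraries (0.77, SE 0.17, adjusted p = 0.238). Of 19 Notch pathway genes 0 passed, and 8 had a positive and 11 a negative fold change. The ligand gene Dll4 had a log2 fold change of -0.55 (adjusted p = 0.305). The receptor gene Notch3 had 145, 141 and 98.4 CPM in the Flna-labelled libraries, against 50.3, 67.5 and 84.1 CPM in the control libraries (0.93, SE 0.22, adjusted p = 0.273). The median of the Notch list was -0.02, and those of TGF-beta and BMP, YAP and extracellular matrix genes were 0.00, 0.15 and 0.03, each with 0 genes past the threshold. Replication and cell cycle genes had a median of 0.08, with 32 of 44 positive and 0 past the threshold. Of the 44, 10 were higher and 1 lower without overlap, beside 9.27% and 8.71% of all genes. Foxm1, a factor of mitotic genes, had 91.6, 91 and 81.6 CPM in the Flna-labelled libraries, against 67.9, 71.5 and 73.3 CPM in the control libraries (0.31, SE 0.10, adjusted p = 0.304). Genes of hypoxia and glycolysis had a median of -0.05. Ddit4, a stress-induced inhibitor of mTORC1, had 53.8, 61.9 and 41.8 CPM in the Flna-labelled libraries, against 24.9, 33.6 and 33.2 CPM in the control libraries (0.76, SE 0.17, adjusted p = 0.254).

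The number of genes that passed changed with the libraries used. Without Flna-labelled library 3, 55 genes (0.395% of 13935) rose and 43 (0.309%) fell by limma, among them all 10 of the genes above. Without Flna-labelled library 1 or 2, 3 and 8 genes passed, and without control library 1, 2 or 3, 1, 1 and 0 genes passed, the last beside 2598 at an unadjusted p under 0.05. The gene that passed without control library 1 was Xist (adjusted p = 0.00119). Counts without a library rest on a group of 2, whose spread limma pools with that of the other group.

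The Flna-labelled libraries were also compared directly with the double mutant, which differs from them by label in the second Asb2 allele. In that fit 4394 of 13954 genes (31.5%) passed. Of the 10 genes above, 9 were higher in the Flna-labelled libraries and 0 lower, and Tmem37 did not pass (-0.43, SE 0.24, limma adjusted p = 0.197). These 10 genes were chosen with the same Flna-labelled libraries, so this count is not independent of that choice. The liver genes among them had been chosen as high in those libraries. Hbb-y had 1657, 2025 and 1575 CPM in the Flna-labelled libraries, against 322, 234 and 169 CPM in the double mutant libraries (2.90, SE 0.22, adjusted p = 0.000221). Alb had 5.95, 26 and 7.6 CPM in the Flna-labelled libraries, against 0 CPM in each double mutant library (4.48, SE 0.49, adjusted p = 0.000637). Double mutant means of Alb, Itih2 and Vtn were 0, 0.127 and 0.585 CPM, so these genes passed the filter only through the Flna-labelled libraries. The hemoglobin list had 6 of 7 chains higher (median 2.67) and the liver list 17 of 25 genes higher (median 2.18). Over all 13954 genes 2281 were higher and 2113 lower, with a median of 0.02. The liver count includes members that passed the filter only through the Flna-labelled libraries, Ambp among them at 0 CPM in each double mutant library. Of 37 sarcomere genes 17 were lower in the Flna-labelled libraries (median -0.71). Flna, floxed by label in both groups, had 958, 1010 and 990 CPM in the Flna-labelled libraries, against 1012, 1012 and 1146 CPM in the double mutant (-0.10, SE 0.10, adjusted p = 0.477).

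Against the Asb2 cKO, which lacks the Flna label and has both Asb2 alleles floxed, 2193 of 13996 genes (15.7%) passed. The 4 hemoglobin chains, Car2 and Alb were higher in the Flna-labelled libraries, making 6 of the 10 genes, and 0 were lower. As above, the 10 genes were chosen with these same Flna-labelled libraries. The Asb2 cKO mean of Alb was 0.989 CPM, so Alb passed the filter only through the Flna-labelled libraries. Hba-x had 772, 1038 and 747 CPM in the Flna-labelled libraries, against 126, 149 and 328 CPM in the Asb2 cKO (2.20, SE 0.32, limma adjusted p = 0.00539). Vtn had 9.41, 22.1 and 8.78 CPM in the Flna-labelled libraries, against 14.1, 1.41 and 9.63 CPM in the Asb2 cKO (0.96, SE 0.73, adjusted p = 0.385). Itih2 had 19.6, 69.6 and 33.2 CPM in the Flna-labelled libraries, against 24, 0 and 27.9 CPM in the Asb2 cKO (2.36, SE 1.84, adjusted p = 0.42). Asb2 cKO libraries 1 and 3 thus lay within or near the Flna-labelled range for these genes and library 2 did not. The same libraries differed in Xist, at 571, 0.38 and 377 CPM in Asb2 cKO libraries 1, 2 and 3. Ddx3y was at 19.3, 84.4 and 32.2 CPM in the same order, and the part of this pattern was not tested. Flna had 958, 1010 and 990 CPM in the Flna-labelled libraries, against 1032, 869 and 725 CPM in the Asb2 cKO, which is not labelled as floxed for Flna (0.19, SE 0.15, adjusted p = 0.397). These ranges overlapped. Asb2 itself had 125, 113 and 197 CPM in the Flna-labelled libraries, against 77.8, 163 and 115 CPM in the Asb2 cKO (0.31, SE 0.28, adjusted p = 0.457).

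Each group has its own values against the control libraries, which all 3 comparisons share. The hemoglobin median was -1.20 in the Flna-labelled libraries, -3.74 in the double mutant and -3.07 in the Asb2 cKO. That of the mitochondrial genome was -1.04, -1.35 and -0.93 in the same order, and that of the respiratory chain -0.43, -0.54 and -0.66. The log2 fold change of Flna was 0.76 in the Flna-labelled libraries (limma adjusted p = 0.147), 0.86 in the double mutant (0.00255) and 0.58 in the Asb2 cKO (0.0464), so Flna rose against control in the Asb2 cKO, which lacks the Flna label. In the double mutant 32.3% and in the Asb2 cKO 21.6% of all genes tested passed against the control libraries. Because the same 3 control libraries enter each of these values, their likeness is not given as a result.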

How the data were processed

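RNA came from a Qiagen micro column kit and was read on Illumina instruments, per the labels' protocols. The submitters' processing notes name STAR, HTSeq, edgeR and mm10, without roles or versions. Versions, annotation and strand setting are not given in the sources used here, so reads of overlapping or antisense genes cannot be told apart. The authors deposited normalized expression (signal) named CPM, which sums to 942334 to 1045841 in the 6 libraries of the main comparison, so it was scaled by 1 factor per library. In 100% of values it gave whole reads (tolerance 0.02 read), with the same values in all 4 tables to within 4.4e-06 CPM, and the plan had assumed plain CPM. The deposited log2 fold changes, p-values and FDR are the authors' own and are quoted only as such. Of the gene IDs, 99.1% were found in GENCODE M21, which gave coordinates. Beyond these, 13 columns without headers were not used.

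Groups were compared with limma 3.58.1 (trend, robust; R 4.3.3) on log2(CPM + 0.5), keeping genes whose mean reached 1 CPM, with Benjamini-Hochberg adjustment over all genes tested and a threshold of 0.05. A fold change is on the log2(CPM + 0.5) scale. edgeR 4.0.16 and DESeq2 1.42.0 were run on the recovered reads. Both limma and edgeR were tested on simulated data. Replicates differed by more than sampling noise (mean chi-square per gene 20.3 to 79.5). Alternatives covered pseudocounts, filters, scalings, library weights, a replicate block, Xist as a covariate, a length trend (lowess span 0.3), a joint fit of 4 groups and leaving out each library. A fit against control library 1 alone and edgeR without each library were added after the data were seen.

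The members, gene lists and rules were chosen with earlier results of these data known. Lists are described by counts and medians and were not tested. Named genes were Asb2 and Flna, all genes past the threshold, the 8 largest and 8 smallest fold changes without overlap at 5 CPM or more, up to 3 members of each list by p, and all hemoglobin, mitochondrial genome and sex-linked members, and not all of these are reported here. Promoter sequences are from RefSeq (GRCm38.p6). Tables were handled in python 3.11.15 and pandas 2.3.3.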

Additional observations from a re-analysis of the deposited data

How the results depend on the processing

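The count of 10 genes past the threshold was 7 to 11 with pseudocounts of 0.1 and 2, other filters, the TMM and median-of-ratios scalings and rescaling without hemoglobin. It was 0 by limma without trend and robust (1662 genes at an unadjusted p under 0.05), 29 with library weights, 2 by edgeR with and 2 without a filter, 244 by DESeq2, 2 in the joint fit of 4 groups, 0 with Xist as a covariate (1887 at an unadjusted p under 0.05) and 6 with the length trend removed. Leaving out 1 library gave 0 to 98 genes. Added after the data were seen, control library 1 alone gave 0 genes (2511 at an unadjusted p under 0.05). edgeR gave 0, 1 and 0 without control library 1, 2 or 3, the zeros beside 1065 and 2545 genes at an unadjusted p under 0.05, and 0, 4 and 39 without Flna-labelled library 1, 2 or 3, the 0 beside 967 such genes. Leaving out 1 library gave 2712 to 4623 genes against the double mutant, beside 4394, and 609 to 2374 against the Asb2 cKO, beside 2193. The cause of these differences was not tested, other than that fewer libraries enter some fits.

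The replicate numbers are not stated to pair libraries, and same-numbered libraries deviated with correlations of -0.47, 0.17 and -0.18. With the replicate number as a block, 1 gene passed, Vtn, against 10 without it, and 5474 and 1688 genes passed against the double mutant and the Asb2 cKO.

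The 10 genes kept their direction under all 29 alternatives, except that Cebpa had no value under a filter of 5 CPM. Because the groups did not overlap for these genes, limma fits on fewer libraries could not change their direction. Of 2227 values of 77 named genes under alternatives, 1971 kept direction and side of the threshold, 165 no longer passed, 88 passed in addition, and 3 changed sign. The sign changes were all of Afp, at -0.90 with Xist as a covariate, -0.0866 without control library 2 (leaving out 1 library gave -0.0866 to 2.807) and -0.0733 by edgeR without Flna-labelled library 2. Of 1015 list medians, 61 moved by more than the spread between libraries. Counts near 0, as of Alb in the control libraries, limit the precision of the liver gene fold changes, and these limits cover counting error only.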
